A study of Homo sapiens and Mus musculus with 16 samples.

Results

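The genes of synaptic vesicle release were followed from the cytoplasm into P-bodies, with day 20 neurons as the main cell type. The set comprised 68 of the 22286 genes in the human count table, chosen by symbol: the synaptotagmins (SYT), synapsins (SYN), syntaxins (STX), syntaxin-binding proteins (STXBP), vesicle-associated membrane proteins (VAMP), SNAP, SV2, RAB3 and complexin (CPLX) families, together with SYP, UNC13A, RIMS1, BSN and PCLO. All 68 had counts in each comparison. The rule used symbols alone, but it was set with earlier results of these data known. Over the 4 neuron libraries, 47 averaged 10 CPM or more (counts scaled to a library total of 1000000).

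P-bodies are cytoplasmic condensates of RNA and protein, and P-body-seq sorts them as fluorescent particles from lysed cells before their RNA is sequenced. Neurons and liver bud progenitors were derived from UCLA4, a line of human embryonic stem cells, carrying GFP-LSM14A, a P-body protein, from a tetracycline-regulated vector at the AAVS1 locus. HEK293T, a human embryonic kidney line, carried GFP-LSM14A from a lentiviral vector with the EF1a promoter, so every library came from cells with the tagged protein. Each cell type had 2 P-body and 2 cytoplasm libraries, and each cytoplasm library was an aliquot of the fraction taken before sorting, which still held P-bodies. The labels do not say whether replicates were separate cultures, although the study describes the samples of a group as biologically independent, and p-values measure the spread between these libraries. The neuron and liver bud progenitor libraries were labelled polyA RNA and those of HEK293T total RNA.

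Neurotransmitter release begins when a SNARE on the vesicle, a VAMP, zippers with a syntaxin and a SNAP protein on the plasma membrane and pulls the membranes together. Syntaxin-binding proteins and UNC13A prepare this complex, complexins and synaptotagmins couple fusion to calcium entry, and RAB3, RIMS1, BSN and PCLO hold vesicles at the active zone. Every cell uses related SNAREs for traffic between the Golgi, endosomes and plasma membrane, so several of these families pair a neuronal gene with a widely expressed relative.

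In neurons, 13 of 23 messages listed as neuronal release machinery were lower in P-bodies than in the cytoplasm and 0 were higher. This list was chosen with earlier results of these data known, so its counts are descriptions of the listed genes. It leaves out other release genes, among them SYT2, which was not called, and SYT7, which was lower. Of the 68 genes, 7 were higher in P-bodies (STX2, STX3, STX6, STXBP3, STXBP4, SYT14 and VAMP3) and 20 were lower, with an edgeR adjusted p under 0.05 counted as a call, while 41 did not pass. Among all 22093 genes tested, 14.6% were called higher and 14.1% lower. The median log2 fold change (P-body over cytoplasm) was -0.29 for the 68 genes and 0.19 for all genes. Most of these genes were well expressed, and well expressed genes were called more often. Of the 47 at 10 CPM or above, 6 were higher and 19 lower, beside 27.2% and 32.9% of the 8316 genes at that level. The medians were -0.38 for these members and -0.18 for all genes at that level. The 10 CPM level is a mean over both fractions, so a gene can reach it through the fraction where it is high.

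The genes listed as neuronal presynaptic gave 0 higher and 13 lower calls and a median log2 fold change of -0.72, and RIMS1, SYT1 and SNAP25 were among the 10 not called. Their summed level was 3544 and 3805 CPM in the cytoplasm libraries and 2368 and 2499 CPM in the P-body libraries. The 24 genes listed as general trafficking SNAREs and their partners gave 5 higher and 1 lower call, a median of 0.07, and sums of 509 and 545 CPM in the cytoplasm against 679 and 666 CPM in P-bodies. At 10 CPM or above, the neuronal list had 13 lower calls among 20 genes, beside the 32.9% of all genes at that level. The trafficking list had 4 higher calls among 13, a share near the 27.2% of all genes. Of these 4, STXBP3 and VAMP3 were under 10 CPM in the cytoplasm and reached that level through their P-body values. For each list, the sums of the P-body libraries did not overlap those of the cytoplasm libraries. Scaling by library size alone raised the median of all genes by 0.16 on the log2 scale; the neuronal list then gave 0 higher and 12 lower calls and the trafficking list 6 higher and 1 lower. Without cytoplasm replicate 1 the median of the trafficking list was -0.04, and without P-body replicate 1 or 2 it was 0.02 and -0.05. All 12 human libraries in a single fit gave 6 higher and 4 lower calls for this list and a median of -0.05. Neither the count nor the sign of its median held across settings.

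The cells carried neuronal markers, and a few other values moved with the fraction. The 12 neuron markers summed to 14900 to 15600 CPM in the neuron cytoplasm, 13600 CPM in both P-body libraries and 615 to 653 CPM in the liver bud progenitor cytoplasm. The 8 neural progenitor markers summed to 1750 and 1850 CPM in the neuron cytoplasm and to 3740 and 3880 CPM in P-bodies. Of these 8, MKI67 (1040 and 1950 CPM on average in cytoplasm and P-bodies), TOP2A (185 and 862), PAX6 (83.7 and 422) and SOX2 (64.0 and 230) were called higher, NES was called lower (log2 fold change -0.88, adjusted p = 0.000113), and VIM (-0.22), HES5 (-0.90) and SOX1 (0.26) were not called. Their part in the results was not tested. Where the bulk samples of different cell types are compared, fewer cells of a type and less RNA per cell cannot be told apart. OLIG2 and SOX10, which define oligodendrocyte precursors, were at or under 3 counts in every neuron library. Ribosomal RNA genes took 11.4% to 13.4% of counts in neuron P-bodies and 21.5% to 24.9% in the cytoplasm, and leaving them out gave 7 higher and 20 lower calls. The neuron P-body libraries were the least alike of any pair, with a Spearman correlation across genes of 0.933 against 0.984 to 0.993 elsewhere. Without P-body replicate 1 or 2 the median log2 fold change of the members tested was -0.30 or -0.42, beside 0.09 or 0.07 for all genes.

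**Figure D1:**
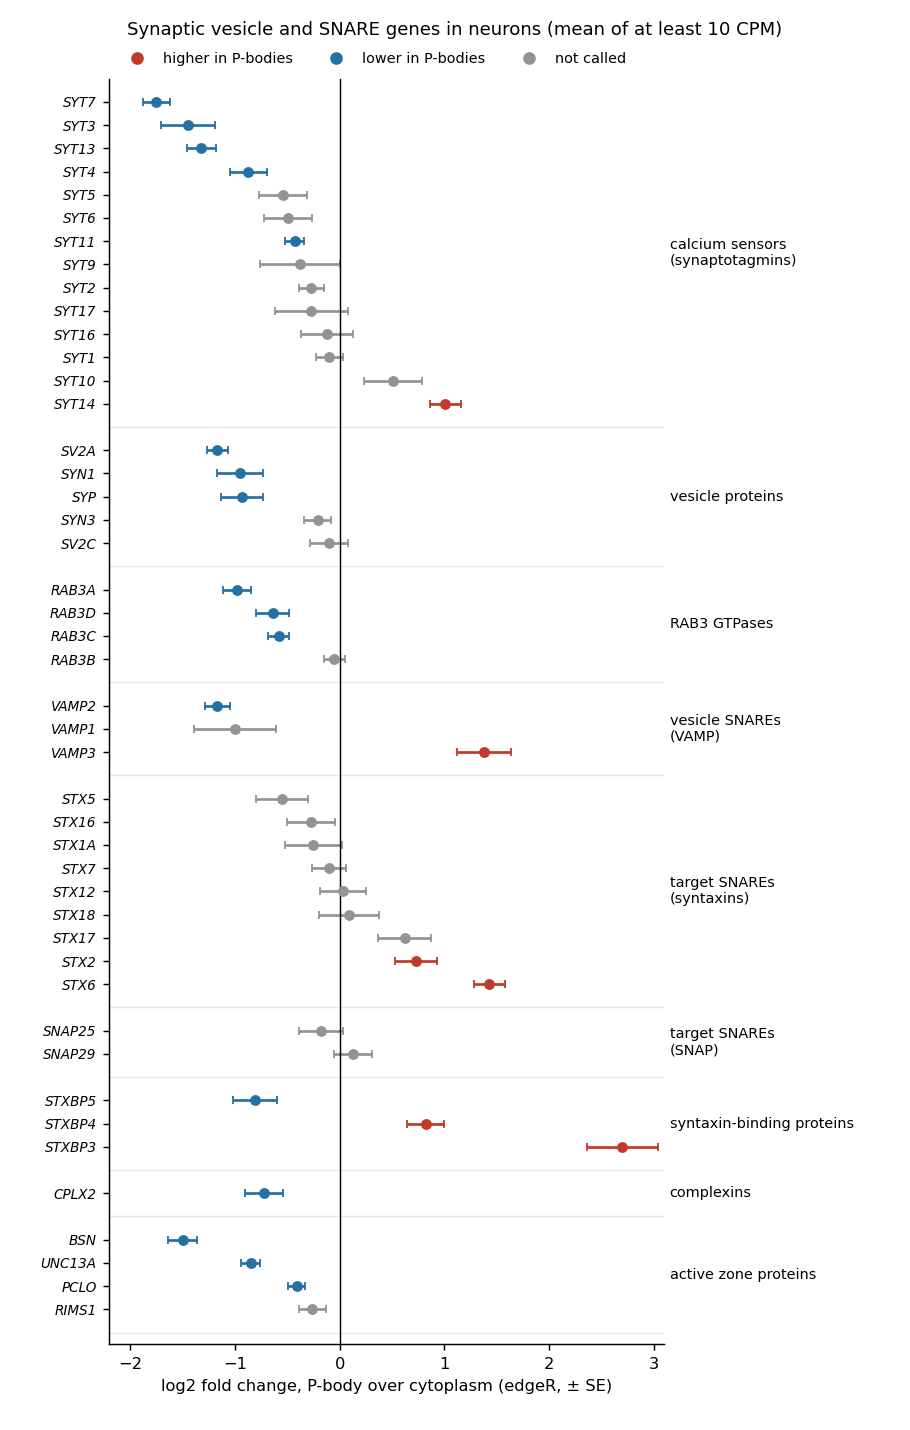
The log2 fold change of P-body over cytoplasm in neurons (horizontal axis, edgeR estimate with its standard error) for 45 of the 47 genes averaging 10 CPM or more, grouped by role; red points were called higher, blue points lower and grey points neither. 34 of the 45 points lie left of 0, and STXBP3 lies farthest to the right at 2.70.

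The sequences of VAMP2 and VAMP3 are shown first, because their proteins are much alike while their messages were on opposite sides of the neuron comparison. Below, 30 codons are printed for each, from the canonical GENCODE v44 transcripts on hg38. The stretch is the one with the most identical residues that aligned without a gap and lay in 1 exon of both genes, and capitals mark G or C at the third position of a codon. The pair was chosen after its values were seen.
VAMP2: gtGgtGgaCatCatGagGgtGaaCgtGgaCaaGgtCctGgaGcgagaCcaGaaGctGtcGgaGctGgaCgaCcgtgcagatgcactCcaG
VAMP3: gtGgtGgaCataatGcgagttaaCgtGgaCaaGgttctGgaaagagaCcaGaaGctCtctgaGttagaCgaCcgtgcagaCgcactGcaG
The VAMP2 stretch lies in exon 3 at chr17:8161677-8161766 on the minus strand, and the VAMP3 stretch in exon 3 at chr1:7777160-7777249 on the plus strand. All 30 residues were identical, but 25 codons of VAMP2 and 19 of VAMP3 ended in G or C.

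VAMP2 is the main vesicle SNARE of synapses, and VAMP3 its counterpart on recycling endosomes of most cells. Over the whole alignment their proteins were identical at 80 of 99 residues. VAMP2 was at 111 and 117 CPM in the neuron cytoplasm libraries and 55.9 and 57.5 CPM in P-bodies, a 2.25-fold lower level (log2 fold change -1.17, SE 0.12, adjusted p = 7.29e-06). VAMP3 was at 7.32 and 8.31 CPM in the cytoplasm and 22.9 and 22.7 CPM in P-bodies (log2 fold change 1.38, SE 0.26, adjusted p = 0.00145). The fractions did not overlap for either gene, and VAMP2 stayed the more abundant message in both. Per kilobase of transcript, VAMP2 was at 53.6 CPM and VAMP3 at 3.59 CPM in the cytoplasm, against 26.7 and 10.5 CPM in P-bodies. Of the other VAMPs, only VAMP1, a neuronal vesicle SNARE, reached 10 CPM; its P-body libraries gave 6.02 and 19.5 CPM and its cytoplasm libraries 21.1 and 24.6 CPM, and the difference did not pass (log2 fold change -1.0, adjusted p = 0.0772).

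STX2, a plasma membrane syntaxin of many tissues, was higher in neuron P-bodies. It was at 24.1 and 36.0 CPM in the cytoplasm and 62.2 and 49.2 CPM in P-bodies (log2 fold change 0.73, SE 0.20, adjusted p = 0.015). STX6, which serves traffic between endosomes and the trans-Golgi network, moved further in the same direction, from 31.6 and 28.1 CPM to 84.7 and 96.5 CPM (log2 fold change 1.43, SE 0.15, adjusted p = 1.10e-05). STX3, an apical membrane syntaxin with a mean under 10 CPM, rose from 1.92 and 3.19 CPM to 9.03 and 9.30 CPM (log2 fold change 1.68, adjusted p = 0.0128). STX2 and STX3 were no longer called without cytoplasm replicate 1, with adjusted p = 0.216 and 0.213. Among syntaxins that did not pass at 10 CPM or above, STX1A, a neuronal form, had a log2 fold change of -0.25, and STX5, STX7, STX12, STX16, STX17 and STX18 lay between -0.55 and 0.62.

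STXBP3 (Munc18c), which serves plasma membrane traffic in many cells, rose from 2.44 and 2.71 CPM to 18.2 and 19.3 CPM, a 6.48-fold increase that was the largest among the called genes (log2 fold change 2.70, SE 0.34, adjusted p = 4.40e-05). STXBP4, a partner of the syntaxin STX4, was also higher, at 47.9 and 63.9 CPM in P-bodies and 28.6 and 27.8 CPM in the cytoplasm (log2 fold change 0.82, adjusted p = 0.00371). STXBP5 (tomosyn), an inhibitor of SNARE assembly, was lower (log2 fold change -0.81, adjusted p = 0.0119), a call that was lost when either cytoplasm library was left out, with adjusted p up to 0.204.

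**Figure D2:**
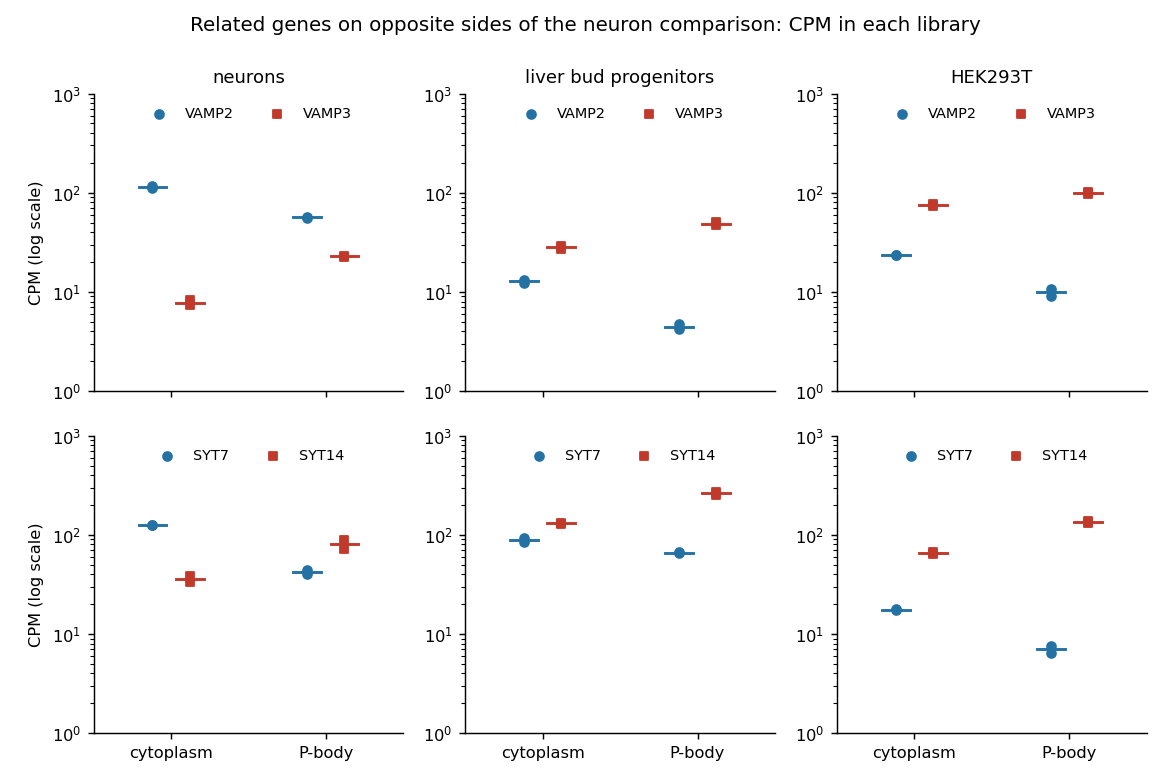
CPM (vertical axis, log scale) of each library in the cytoplasm and P-body fractions of neurons, liver bud progenitors and HEK293T for VAMP2 and VAMP3 (top) and SYT7 and SYT14 (bottom); points are libraries and bars the mean of 2. In neurons VAMP2 and SYT7 fall and VAMP3 and SYT14 rise from cytoplasm to P-body.

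The synaptotagmins, C2-domain proteins of which only some bind calcium, gave 6 lower and 1 higher call among 16 genes, with a median log2 fold change of -0.46. At 10 CPM or above 5 of 14 were lower, a share near the 32.9% of all genes at that level. SYT7, a high-affinity calcium sensor of slow release, fell most clearly, from 127 CPM in both cytoplasm libraries to 44.7 and 40.0 CPM in P-bodies (log2 fold change -1.75, SE 0.13, adjusted p = 4.18e-07). SYT13, which lacks calcium-binding residues, was at 82.6 and 87.8 CPM against 40.2 and 36.3 CPM (log2 fold change -1.32, adjusted p = 1.13e-05), and SYT3 at 32.0 and 35.5 against 17.5 and 10.2 CPM (log2 fold change -1.45, adjusted p = 0.000923). SYT4, found on dense-core vesicles, had a log2 fold change of -0.87 (adjusted p = 0.00206). SYT11 was the most abundant of the family, at 305 and 334 CPM in the cytoplasm and 265 and 267 CPM in P-bodies; the shift was small (log2 fold change -0.43, adjusted p = 0.00192) and did not pass with scaling by library size alone (adjusted p = 0.0599). SYT1, the fast calcium sensor of release, was not called: its cytoplasm libraries at 92.6 and 120 CPM and its P-body libraries at 105 and 116 CPM overlapped (log2 fold change -0.10, SE 0.13, adjusted p = 0.583). SYT2, which does the same work at other synapses, was at 124 and 117 CPM against 120 and 105 CPM and did not pass either (log2 fold change -0.27, adjusted p = 0.119); a gene on the opposite strand covers 27.6% of its exons, and counting by strand is not stated for these libraries. SYT14 was the 1 synaptotagmin called higher, at 33.6 and 38.4 CPM in the cytoplasm and 72.7 and 89.1 CPM in P-bodies (log2 fold change 1.01, SE 0.15, adjusted p = 0.000241). SYT5, SYT6, SYT9, SYT10, SYT16 and SYT17 were at 10 CPM or above and not called, with log2 fold changes from -0.54 to 0.51; SYT9 and SYT17 differed more than 2-fold between the P-body replicates. SYT15, under 10 CPM, was called lower at 9.06 and 4.45 CPM against 1.16 and 2.85 CPM, but not without cytoplasm replicate 1 (adjusted p = 0.448), and it may share reads with a near-identical copy.

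Proteins of the vesicle membrane and surface gave 3 lower calls among 7 genes; in families as small as this and those that follow, such counts are descriptions of the named genes. SV2A, a vesicle glycoprotein and the target of the drug levetiracetam, was at 305 and 335 CPM in the neuron cytoplasm and 169 and 150 CPM in P-bodies (log2 fold change -1.17, SE 0.10, adjusted p = 1.54e-06). SYN1, which tethers vesicles in clusters, was at 30.2 and 25.6 CPM against 15.5 and 16.9 CPM (log2 fold change -0.95, adjusted p = 0.00586). SYP, the classical marker of synaptic vesicles, was at 34.2 and 34.0 CPM against 17.8 and 22.4 CPM (log2 fold change -0.93, adjusted p = 0.00392). The fractions of these 3 genes did not overlap, although SYN1 and SYP lost the call without cytoplasm replicate 1 (adjusted p = 0.165 and 0.053). Within the same families SYN3, at 129 and 145 CPM in the cytoplasm and 115 and 151 CPM in P-bodies, and SV2C were not called (log2 fold changes -0.21 and -0.10).

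All 4 RAB3 GTPases, which mark secretory vesicles and bind active zone effectors, were expressed, and 3 were lower in P-bodies. RAB3A, the main synaptic form, was at 91.9 and 91.6 CPM in the cytoplasm and 52.3 and 51.8 CPM in P-bodies (log2 fold change -0.98, SE 0.13, adjusted p = 6.57e-05). RAB3C was at 277 and 321 CPM against 206 and 241 CPM (log2 fold change -0.58, adjusted p = 0.000616), and RAB3D had a log2 fold change of -0.64 (adjusted p = 0.00852, and 0.182 without cytoplasm replicate 1). RAB3B was at 132 and 150 CPM in the cytoplasm and 146 and 159 CPM in P-bodies, with overlapping libraries and a log2 fold change of -0.05 (adjusted p = 0.748).

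At the active zone 3 of 4 genes were lower. BSN (bassoon), a giant scaffold, fell from 382 and 358 CPM to 170 and 123 CPM (log2 fold change -1.50, SE 0.14, adjusted p = 2.86e-06). Its relative PCLO (piccolo) was the most abundant of the 68 by CPM, at 673 and 746 CPM in the cytoplasm and 576 and 622 CPM in P-bodies, with a called difference (log2 fold change -0.41, SE 0.08, adjusted p = 0.0015) that did not pass with scaling by library size alone (adjusted p = 0.0671). UNC13A (Munc13-1), which primes vesicles, was at 276 and 284 CPM against 164 and 184 CPM (log2 fold change -0.85, SE 0.09, adjusted p = 1.47e-05). RIMS1, which binds RAB3 and UNC13A, was at 73.2 and 75 CPM against 71.2 and 67.9 CPM and was not called (log2 fold change -0.26, adjusted p = 0.159). CPLX2, a complexin, which clamps the SNARE complex, was lower (log2 fold change -0.72, adjusted p = 0.00835, and 0.121 without cytoplasm replicate 1), and the other complexins were under 10 CPM.

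SNAP25, the plasma membrane SNARE that binds VAMP2 in the synaptic complex, was not called. It was at 21.4 and 28.7 CPM in the cytoplasm and 24.8 CPM in both P-body libraries, with overlap and a log2 fold change of -0.18 (SE 0.21, adjusted p = 0.571). SNAP29, a SNARE of intracellular membranes, was at 79.9 and 87.0 CPM against 125 and 80.0 CPM and was not called (log2 fold change 0.13). The 21 genes under 10 CPM had means from 0.132 to 9.98 CPM, and CPLX4, STX11, STX19, SYT12 and VAMP5 were at or under 3 counts in both libraries of a fraction, so no fold is given for them. Across all 68 genes, 30 had both P-body libraries below both cytoplasm libraries and 15 had both above, beside 25.7% and 38.7% of all genes tested.

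Other genes of release and recycling that are not members of these families gave a mixed picture, with 6 higher and 15 lower calls among 46 and a median log2 fold change of -0.25. At 10 CPM or above 5 of 31 were higher and 15 lower, beside 27.2% and 32.9% of all genes at that level. The clearest lower genes were RIMS3 (log2 fold change -1.29), CASK (-0.80), DNM3 (-1.17) and NRXN2 (-1.38), which encode a small RIM protein, a scaffold, a dynamin and a neurexin. PPFIA1 and PPFIA2, liprins of the active zone, were higher (log2 fold changes 1.29 and 0.82), as were SLC17A6, the vesicular glutamate transporter VGLUT2 (1.43), and the phosphatase SYNJ1 (0.64). NSF, which takes SNARE complexes apart after fusion, was at 65.0 CPM in the cytoplasm and 67.0 CPM in P-bodies on average and was not called (log2 fold change -0.12, adjusted p = 0.524).

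Base composition differed between the called groups. A median of 48.8% of codons ended in G or C in the 7 genes higher in neuron P-bodies and 74.0% in the 20 lower genes, against 60.3% in all protein-coding genes. The median was 68.6% for the neuronal presynaptic list and 57.3% for the trafficking list. Over the 60 members averaging 1 CPM or more, the Spearman correlation of this share with the neuron log2 fold change was -0.461, and over all 13172 protein-coding genes at that level it was -0.485. In liver bud progenitors these were -0.706 over 61 members and -0.569 over all, and in HEK293T -0.48 over 51 members and -0.512 over all. These correlations run across genes that share libraries and are descriptions only. PCLO, STXBP5, SYT4 and RAB3C were lower in neuron P-bodies although only 34.0% to 49.6% of their codons ended in G or C. The same correlation with transcript length was 0.0657 over the members in neurons. The part of base composition in the calls was not tested.

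**Figure D3:**
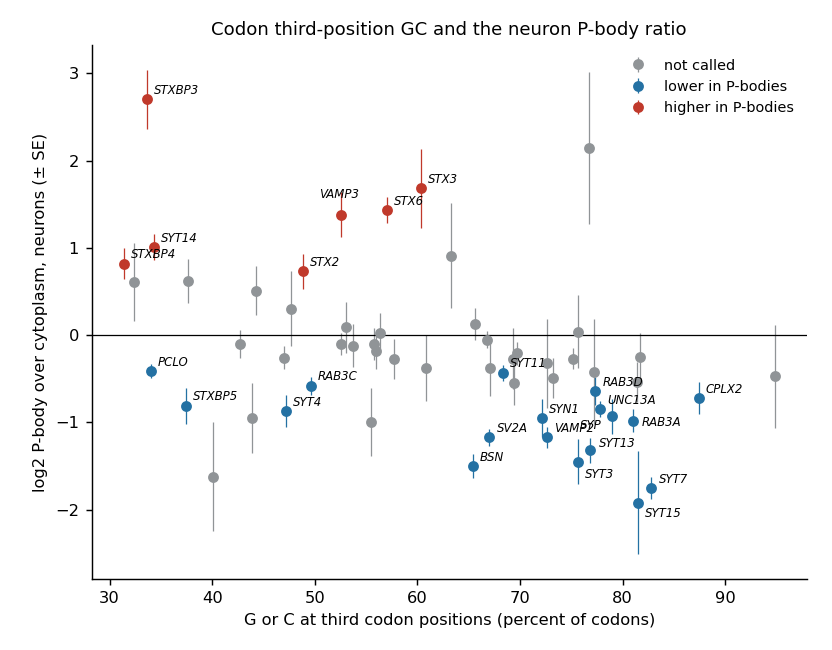
The log2 fold change in neurons (vertical axis, with its standard error) against the percent of codons ending in G or C in the canonical transcript (horizontal axis) for 58 of the 60 genes averaging 1 CPM or more. Red points, called higher, reach from 31.4% to 60.3%; blue points, called lower, reach from 34.0% to 87.4%.

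The other human cell types place the neuron values in context. In liver bud progenitors 20 of the 68 genes were higher in P-bodies and 17 lower (edgeR; 21.4% and 17.1% of the 21951 genes tested), and the median log2 fold change was -0.00. At 10 CPM or above there, 15 of 35 were higher and 12 lower, beside 47.1% and 27.9% of genes at that level. The 23 neuronal presynaptic genes gave 5 higher and 8 lower calls there, and the 24 trafficking genes 11 higher and 4 lower. VAMP1, BSN, SYT2 and STXBP2 were among the lowest called ratios at 10 CPM or above (log2 fold changes -1.68, -1.65, -1.14 and -0.85), and STXBP3, SYT14, STX12, STX2 and VAMP3 the highest (1.56, 1.19, 1.05, 1.04 and 0.97). In HEK293T 15 were higher and 14 lower (19.3% and 22.8% of 21903 genes), or 11 and 16 with scaling by library size alone, and at 10 CPM or above 13 of 32 were higher and 10 lower, beside 44.0% and 38.4%. Among those at 10 CPM or above, STX10, STX5, RAB3D, SYT7 and VAMP2 had the lowest called ratios (-1.27, -1.23, -1.22, -1.19 and -1.11), and STX7, SYT14, STX6, STX2 and STXBP3 the highest (1.25, 1.18, 1.08, 1.05 and 0.90). The lists did not separate in HEK293T. The neuronal presynaptic list gave 3 higher and 4 lower calls (median log2 fold change -0.04), and the trafficking list 8 higher and 8 lower (0.03).

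Of the 7 genes higher in neuron P-bodies, 6 were called higher in all 3 cell types: STX2, STX6, STXBP3, STXBP4, SYT14 and VAMP3. Such sharing was common, at 56.3% of the 3220 genes called higher in neurons and 75.4% of the 2259 of these at 10 CPM or above. For VAMP3, liver bud progenitors gave 27.3 and 29.3 CPM in the cytoplasm and 47 and 50.8 CPM in P-bodies, and HEK293T 76.9 and 74.2 CPM against 101 and 97.3 CPM. Of the 20 lower genes, BSN, RAB3D, SV2A, SYT7 and VAMP2 were called lower in all 3. Such sharing held for 39.7% of the 3123 genes called lower in neurons and 43.1% of the 2739 of these at 10 CPM or above. The liver bud progenitor call of SYT7 was lost with DESeq2 and with all 12 human libraries in a single fit. It was also lost when some libraries were left out, as was that of RAB3D without P-body replicate 1. VAMP2 was scarcer outside neurons, at 12.4 and 13.2 CPM in the liver bud progenitor cytoplasm and 4.72 and 4.19 CPM in P-bodies, yet its log2 fold change was -1.34 there and -1.11 in HEK293T. VAMP2 and VAMP3 were thus called in opposite directions in each cell type.

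Some genes were lower in neuron P-bodies and higher in those of other cells. PCLO, RAB3C and SYT4 were lower in neurons but passed as higher in liver bud progenitors. There PCLO rose from 135 and 138 CPM to 140 and 153 CPM (log2 fold change 0.29, edgeR adjusted p = 0.0008). SYT4 rose from 2.2 and 1.61 CPM to 5.55 and 5.26 CPM (log2 fold change 1.69, edgeR adjusted p = 0.000114). In HEK293T PCLO was also called higher (log2 fold change 0.36, edgeR adjusted p = 0.000705), while RAB3C and SYT4 were not called. PCLO lost its liver bud progenitor call with scaling by library size alone and without P-body replicate 2. RAB3C lost its call there with DESeq2 and without cytoplasm replicate 2.

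Neurons and liver bud progenitors were then compared in a direct test over the 8 libraries of both, with the difference taken as the neuron log2 ratio minus that of liver bud progenitors. Of the 68 genes, 3 had a higher ratio in neurons and 15 a lower one, beside 9.21% and 8.50% of the 22268 genes tested; the median difference was -0.23 for the members and 0.23 for all genes. Of the 47 members at 10 CPM or above in neurons, 2 were higher and 13 lower, beside 15.9% and 17.9%. With scaling by library size alone the counts were 7 and 9, and that scaling raised the median of all genes by 0.36. SYT7 differed most by p-value, with a difference of -1.52 (SE 0.16, adjusted p = 6.95e-06), against a log2 fold change of -0.24 in liver bud progenitors (85.6 and 92.2 CPM against 65.8 and 66.6 CPM). SYT4 had the largest called difference, -2.58 (SE 0.35). The others with the smallest p-values in the lower direction were PCLO (-0.70), RAB3C (-1.13), RAB3B (-0.55), SYT1 (-0.96), RIMS1 (-1.26) and SNAP23 (-1.89). The remaining 7 lower calls were VAMP7 (-1.72), SYT13 (-1.51), SYT16 (-1.14), STX7 (-1.05), STX12 (-1.03), SV2A (-0.68) and SYT11 (-0.55), of which VAMP7, SYT13 and STX7 passed in all 15 alternatives. SYT1, not called between the neuron fractions, was at 38.3 and 39.6 CPM in the liver bud progenitor cytoplasm and 61.2 and 62.5 CPM in P-bodies. SNAP23, the widely expressed relative of SNAP25, was at 27.3 and 28.0 CPM against 27.4 and 30.9 CPM there and at most 4.16 CPM in any neuron library. The higher ratios in neurons were those of STX3 (1.69), STXBP3 (1.13) and SYT2 (0.87). The difference for STX3 passed in all 15 alternatives, and that for STXBP3 failed in 5, each of which left out a library, among them neuron cytoplasm replicates 1 and 2. SYT2 did not pass without liver bud progenitor P-body replicate 1 or cytoplasm replicate 2, or without neuron cytoplasm replicate 2 (adjusted p up to 0.121), and PCLO and RAB3B did not pass with scaling by library size alone (adjusted p = 0.055 and 0.27).

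Against HEK293T the neuron ratio was higher for 3 genes and lower for 12, beside 6.35% and 6.19% of the 22262 genes tested, or 9 and 7 with scaling by library size alone, which raised the median of all genes by 0.43. At 10 CPM or above in neurons, 2 were higher and 11 lower, beside 13.0% and 14.9%. Cell type and RNA label cannot be told apart in this comparison. STXBP3 (1.66), STX3 (1.19) and VAMP3 (0.73) had the higher ratios in neurons, but only STXBP3 passed in all 15 alternatives. STX3 and VAMP3 did not pass without any 1 of the HEK293T libraries or without neuron cytoplasm replicate 1 (adjusted p up to 0.123 and 0.113), VAMP3 did not with ribosomal RNA genes left out (adjusted p = 0.0563), and SYT6 did not without HEK293T P-body replicate 2 or cytoplasm replicate 1 (adjusted p up to 0.087). SYT6 (-2.48), STX7 (-1.50), UNC13A (-1.48), RAB3A (-1.10), RAB3C (-0.91), PCLO (-0.90) and SYT1 (-0.90) were among the 12 lower ones. RAB3C and SYT1 did not pass with scaling by library size alone (adjusted p = 0.117 and 0.123). STX7, a late endosomal syntaxin, was not called in neurons, at 44.8 and 45.6 CPM against 41.6 and 52.7 CPM, while HEK293T gave 36.3 and 36.2 CPM in the cytoplasm and 70.4 and 87.4 CPM in P-bodies. UNC13A and SYT6 were at most 2.03 CPM in any HEK293T library. The 2 differences share the neuron libraries and are not independent.

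**Figure D4:**
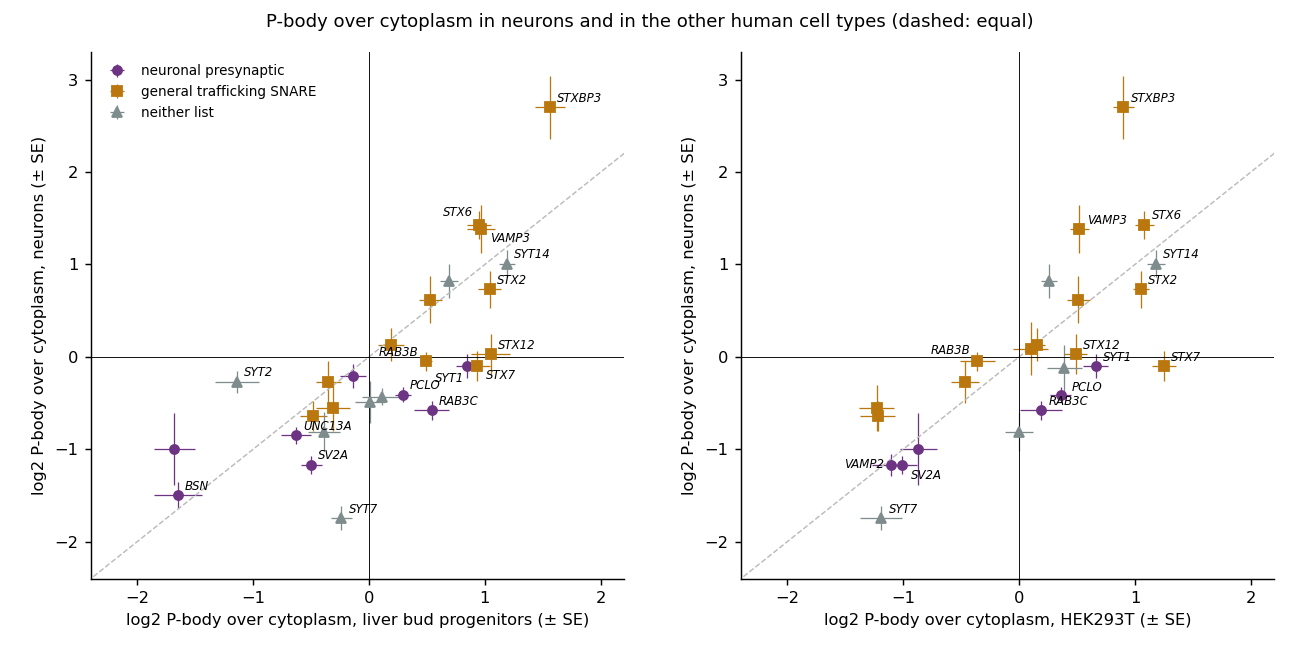
The log2 fold change of P-body over cytoplasm in neurons (vertical axis) against that in liver bud progenitors (left) and HEK293T (right), with standard errors, for genes averaging 10 CPM or more in both cell types of a panel (27 and 24 genes drawn); purple circles are neuronal presynaptic genes, orange squares trafficking genes and grey triangles neither. 18 and 15 of the points lie below the dashed line of equal ratios, and STXBP3 lies above it in both panels.

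Most neuronal presynaptic messages were more abundant in the neuron cytoplasm. Between the cytoplasm libraries of neurons and liver bud progenitors, 37 of the 68 genes were higher in neurons and 11 lower, beside 26.0% and 25.8% of the 21900 genes tested, and the median log2 fold change was 0.84; with scaling by library size alone, which lowered the median of all genes by 0.38, the counts were 35 and 19. At 10 CPM or above in neurons, 34 of 47 were higher and 7 lower, beside 49.8% and 31.3%. The neuronal presynaptic list gave 20 higher calls and 0 lower, and its median was 3.87. BSN was higher by 4.53 on the log2 scale, VAMP2 by 3.54 and SNAP25 by 5.78. Of the genes enriched in neuron P-bodies, STX3 (-4.35), STXBP3 (-2.57), STXBP4 (-1.61), SYT14 (-1.48) and VAMP3 (-1.47) were lower in the neuron cytoplasm than in that of liver bud progenitors, and STX2 and STX6 were not called. The cytoplasm libraries enter both this comparison and the fraction comparisons, so the opposite signs are not independent.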

How the data were processed

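The authors deposited a table of whole-number read counts per gene symbol on hg38, from which they had removed genes with fewer than 10 reads. Their methods describe salmon for total RNA and HISAT with featureCounts for Smart-seq, and which made each column is not given in the sources used here. Columns were mapped to samples by title. Total counts per library ranged from 6368953 to 17972284, so 3 counts corresponded to 0.167 to 0.471 CPM; these floors cover counting error only. The tables of the authors' own comparisons, which hold log2 fold changes and p-values, were not used. CPM were counts divided by the library total and multiplied by 1000000.

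P-body and cytoplasm counts of each cell type were compared in edgeR 4.0.16 (R 4.3.3; quasi-likelihood, TMM, genes at 0 in all compared libraries left out, two-sided, Benjamini-Hochberg adjusted p under 0.05 over all genes), and cell types by an interaction term. Each standard error (SE), also in the figures, was the absolute log2 estimate divided by the square root of its quasi-likelihood F statistic. It is therefore approximate and depends on the estimate. DESeq2 1.42.0, other scalings and filters, a replicate block and the omission of each library were alternatives. Scripts were tested on simulated counts. Genes averaging 10 CPM or more in neurons were named, as were lower ones that were called; in other cells and in the differences, the called genes with the largest changes or smallest p-values were named; some items that meet these rules are not reported here. The members and the lists were chosen with earlier results of these data known. Coordinates and coding sequences came from GENCODE v44 on hg38, where all 68 symbols matched. Of overlapping genes, STX16 shares 29.3% of its exons with the read-through STX16-NPEPL1, and an opposite-strand gene covers 11.0% of those of RAB3A.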

Additional observations from a re-analysis of the deposited data

Results flagged for a closer look

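The P-body over cytoplasm ratio of several genes differed between neurons and another cell type by a test of the difference itself (interaction term, edgeR), on the log2 scale. Against liver bud progenitors the neuron ratio was higher for STX3 by 1.69, STXBP3 by 1.13 and SYT2 by 0.87. It was lower for SYT7 (-1.52), SYT4 (-2.58), RAB3C (-1.13), PCLO (-0.70), RAB3B (-0.55), SYT1 (-0.96), RIMS1 (-1.26) and SNAP23 (-1.89). Against HEK293T it was higher for STXBP3 by 1.66, VAMP3 by 0.73 and STX3 by 1.19, and lower for PCLO (-0.90), STX7 (-1.50), UNC13A (-1.48), RAB3A (-1.10), RAB3C (-0.91), SYT1 (-0.90) and SYT6 (-2.48). The HEK293T libraries also differ in RNA label, which cannot be told apart from cell type.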

How the results depend on the processing

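With 2 libraries per group, the omission of a library leaves 1 in its group, which is assumed to vary like the others. Of the 27 neuron calls 17 passed in every alternative, as did 24 of 37 in liver bud progenitors, 18 of 29 in HEK293T, 10 of 18 and 6 of 15 of the differences of neurons from these, and 46 of 48 between cytoplasms. Leaving out a library gave a median log2 fold change of the members in neurons from -0.42 to -0.30, beside 0.07 to 0.23 for all genes.

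With DESeq2, 11 members were lower in liver bud progenitors (17 in the main test), and with all 12 human libraries in a single fit 9 were lower in HEK293T (14). Scaling by library size alone gave 7 higher and 9 lower differences from liver bud progenitors (3 and 15), 9 and 7 from HEK293T (3 and 12), and 19 lower between cytoplasms (11), where STX2 (-0.37) and SYT6 (-0.38) changed sign and were called lower. The filter filterByExpr gave 5 higher differences from each cell type. Without a library, the median difference of the members from liver bud progenitors ranged from -0.44 to -0.02. The median difference from HEK293T ranged from -0.5 to -0.24. The number of higher differences from HEK293T ranged from 1 (any HEK293T library, or neuron cytoplasm replicate 1) to 4. The number of lower ones ranged from 8 to 19 (neuron P-body replicate 1). Apart from the change of scaling and of the genes tested or samples used, the cause was not tested.

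Same-numbered libraries had deviations from their group means that correlated at 0.126 in neurons, 0.0497 in liver bud progenitors and -0.166 in HEK293T, and nothing in the labels pairs them. A replicate block gave 7 higher and 22 lower calls in neurons, 15 and 13 in HEK293T and 20 and 17 in liver bud progenitors. The crossed pairing of HEK293T, added after seeing the data, gave 16 and 14.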
